A study of Mus musculus with 10 samples.

Results

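The genes described here are 10 transcriptional targets of the tumour suppressor p53: Cdkn1a, Mdm2, Trp53inp1, Ccng1, Bax, Sesn2, Phlda3, Perp, Zmat3 and Bbc3. They were taken by symbol from a table of 54456 genes, and all 10 passed the low-value filter that left 15240 genes for testing. The question was whether these genes stood higher in the libraries in which whole chromosomes had raised transcript levels. Those libraries were both of the line conv-dSVA_F and replicate 2 of the line conv-dSVA_F&D.

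The study built mouse embryonic stem cells (C57BL/6J) that carry a human-derived part of TAF1, the gene of X-linked dystonia parkinsonism, with or without its SVA retrotransposon insertions. Libraries came from conv-dSVA_F (2), conv-dSVA_F&D (2), conv-dSVA_D (2) and the line MK6, labelled as wild type (1). The 3 converted lines share a loxP site in Taf1 intron 24, LPSwapinRed_pUC19 at Taf1_3_4, and the entries pSpCas9, pSpCas9GFP and pCAGiCre (a Cre plasmid), each marked null. Their allele Taf1_humanization_hTAF1 at Taf1_1_2 is given as converted, and as mousifiedSVAdel in conv-dSVA_F, mousifiedSVAdel with dSVA2 in conv-dSVA_F&D and mousified with dSVA2 in conv-dSVA_D. No such entry is given for MK6. All cells were grown on gelatin in serum, LIF, CHIR99021 (a GSK3 inhibitor) and PD0325901 (a MEK inhibitor). Each genotype appears under a single line name with no clone named, so an effect of genotype and one of the particular line cannot be told apart. The labels name no separate cultures for the replicates, and replicate numbers here are only names. The wild type is 1 library, assumed in the tests to vary like the other groups.

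p53 is a transcription factor that is kept low by its own target MDM2, a ubiquitin ligase, and accumulates after DNA damage, nucleolar stress or errors of chromosome segregation. Its targets stop the cell cycle, promote repair or start apoptosis. Gain of a chromosome is a known trigger of p53 activity in many cell types, and embryonic stem cells are known to hold much p53 and to tolerate extra chromosomes such as 8.

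A p53 binding site consists of a pair of 10-base half-sites. The half-site consensus was searched on both strands in the RefSeq windows (GRCm38.p6) from 250 bases before to 50 bases after each annotated start. Windows were found for 7 of the 10 members, and 4 of these members held at least 1 half-site, in 4 of 10 windows. Of all 32851 windows, 8.36% held one. The stretches that hold them are shown because this is the sequence p53 recognises next to the starts of the genes described. Capitals mark the half-sites and, in Cdkn1a, a full site. The Cdkn1a stretch is chr17:29090881-29090972 on the plus strand, just before the upstream of its 2 annotated starts. The others are on the minus strand, at chr10:117710910-117710969 (Mdm2), chr11:40755437-40755496 (Ccng1) and chr7:45467065-45467124 (Bax).
Cdkn1a: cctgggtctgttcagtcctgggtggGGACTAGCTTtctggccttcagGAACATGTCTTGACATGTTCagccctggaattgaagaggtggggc
Mdm2: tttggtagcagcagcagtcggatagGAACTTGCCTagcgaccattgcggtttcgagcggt
Ccng1: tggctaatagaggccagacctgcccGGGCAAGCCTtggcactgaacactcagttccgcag
Bax: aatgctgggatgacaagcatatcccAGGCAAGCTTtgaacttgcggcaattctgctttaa

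The Cdkn1a window held 2 half-sites. The second lies in a full site at chr17:29090928-29090947, made of a pair of adjacent half-sites with 1 mismatch in all. A full site with at most 1 mismatch and at most 1 base between its parts occurred in 29 of all windows (0.0883%). No such full site was found in the Mdm2, Ccng1, Bax, Bbc3, Sesn2 or Phlda3 windows, which says only that these letters are not in them. With 2 mismatches the Bax window held a full site at chr7:45467079-45467099. It begins with the half-site in capitals, and its remaining bases are not marked. Full sites with at most 2 mismatches occurred in 105 of all windows (0.32%). A match is a description of the sequence and does not show binding.

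The split of the libraries rests on chromosome medians, taken over the 10644 protein-coding genes that averaged 50 normalized counts or more. For conv-dSVA_F replicates 1 and 2 the log2 median relative to wild type was 0.63 and 0.44 on chromosome 8, and 0.41 and 0.36 on chromosome 6. For replicate 2 of conv-dSVA_F&D it was 0.51 on chromosome 18. The split was not clean, since conv-dSVA_D stood at 0.07 and 0.24 for chromosome 8 and at 0.15 and 0.14 for chromosome 6. These are transcript levels, and chromosomes were not counted. The wild-type library is 1 sample, so its own deviations enter every such value. None of the 10 members lies on chromosome 6, 8 or 18. The 7 chromosomes that hold them had medians between -0.09 and 0.07. The 8 pluripotency markers checked were present in every library, Pou5f1 at 18394 to 24255 normalized counts. Sox2 was lower in conv-dSVA_F than the mean of the other groups (log2 difference -0.45; limma, adjusted p = 0.0323). From the wild type Sox2 stood at -0.66. For Nanog, which lies on chromosome 6, conv-dSVA_F&D stood at -0.65 relative to conv-dSVA_D (limma, adjusted p = 0.0282). The chromosome 6 median was 0.004 and -0.013 in conv-dSVA_F&D, against 0.15 and 0.14 in conv-dSVA_D. Against the mean of the other groups, and in the Nanog comparison, 7 markers did not pass. The part of these differences in the members' values was not tested. The summed level of 8 fibroblast and feeder markers was 51.3 to 124 in the converted libraries and 285 in the wild type. There Col1a2 stood at 96.0 against at most 8.36 and Postn at 57.9 against 0 elsewhere. Col1a1 and Col3a1 were also highest in the wild type, but Thy1, Twist1 and Dcn were not. These were highest in conv-dSVA_F replicate 1, at 46.8, 45.95 and 4.25 against 29.5, 17.5 and 0 in the wild type. Lum was at 0 in every library. The part of such cells in the differences from wild type was not tested.

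**Figure D1:**
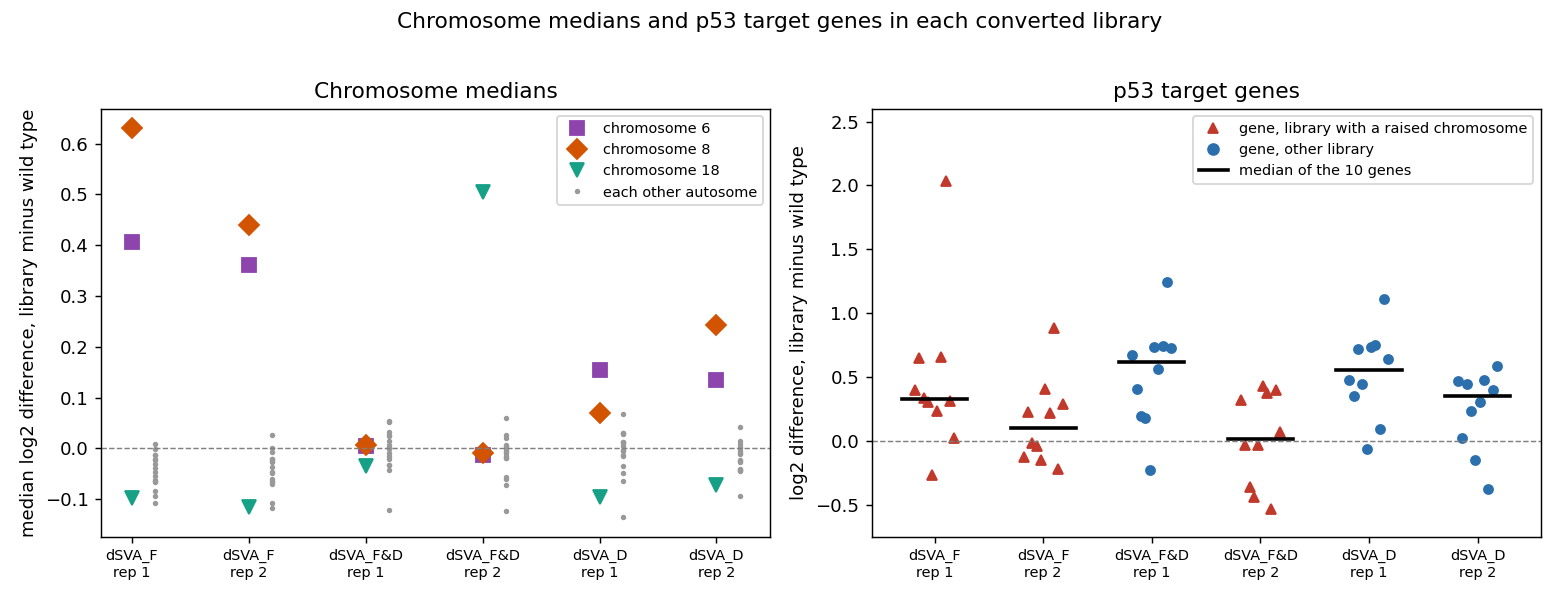
Left, the median over genes of the log2 difference, library minus wild type, for chromosomes 6, 8 and 18 (coloured) and each other autosome (grey) in the 6 converted libraries. Right, the log2 difference from the wild-type library of each of the 10 p53 target genes, with black bars at their medians. The highest member medians, 0.61 and 0.56, are in conv-dSVA_F&D replicate 1 and conv-dSVA_D replicate 1, not in the 3 libraries drawn as red triangles, whose medians are 0.32, 0.10 and 0.02.

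In the 3 libraries with raised chromosomes the p53 target genes lay, by their median, below the other 3 converted libraries and at or above the wild type. This order was close and depended on the summary used. The summed level was 26267.8 in conv-dSVA_F replicate 1, above the 25409.4 of conv-dSVA_D replicate 2. In conv-dSVA_F&D replicate 2 the sum was 19807.5, below the 21192.2 of the wild type. Set against the wild-type library, the median log2 difference of the 10 members was 0.32 in replicate 1 of conv-dSVA_F, 0.10 in its replicate 2 and 0.02 in replicate 2 of conv-dSVA_F&D. It was 0.61 in conv-dSVA_F&D replicate 1, and 0.56 and 0.35 in conv-dSVA_D replicates 1 and 2. The median of all tested genes lay between -0.01 and 0.01 in these 6 libraries. For none of the 10 members did the 3 libraries lie all above or all below the 4 others, while over all genes tested they lay above in 3.44% and below in 3.2%. The highest of the 7 libraries was one of the other 4 for 8 of 10 members and for 57.7% of all tested genes.

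Between labelled groups, 0 of 10 members passed with limma in conv-dSVA_F against the mean of conv-dSVA_F&D, conv-dSVA_D and the wild type. Of all genes tested 3.79% passed. At an unadjusted p under 0.05 there was 1 member, Perp, where 17.8% of all genes did so. edgeR called 0 members and DESeq2 called 1, again Perp. The median log2 difference of the 10 was -0.03, against 0.01 over all genes. This comparison follows the labels, so conv-dSVA_F&D replicate 2, with its raised chromosome 18, is among the other groups. The split of libraries by raised chromosomes was described above but was not tested.

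The limma count was also 0 in each single comparison. In conv-dSVA_F against conv-dSVA_D 0 of 10 passed with limma, where 1.35% of all genes did; 3 members (Perp, Zmat3 and Trp53inp1) had an unadjusted p under 0.05, as had 16.7% of all genes, edgeR called 0 and DESeq2 called 1. In conv-dSVA_F against conv-dSVA_F&D 0 of 10 passed, where 3.92% of all genes did; 2 (Perp and Zmat3) had an unadjusted p under 0.05, as had 20.7% of all genes, edgeR called 0 and DESeq2 called 1. In conv-dSVA_F against the single wild-type library 0 of 10 passed, where 1.82% of all genes did; 1 (Perp) had an unadjusted p under 0.05, as had 19.2% of all genes, and edgeR and DESeq2 called 0. In conv-dSVA_F&D against conv-dSVA_D 0 of 10 passed, where 3.16% of all genes did; 2 (Trp53inp1 and Ccng1) had an unadjusted p under 0.05, as had 19.8% of all genes, edgeR called 0 and DESeq2 called 1. These comparisons share libraries and are not independent of each other. A p above the threshold does not show that levels were equal, so the intervals are given with the genes.

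**Figure D2:**
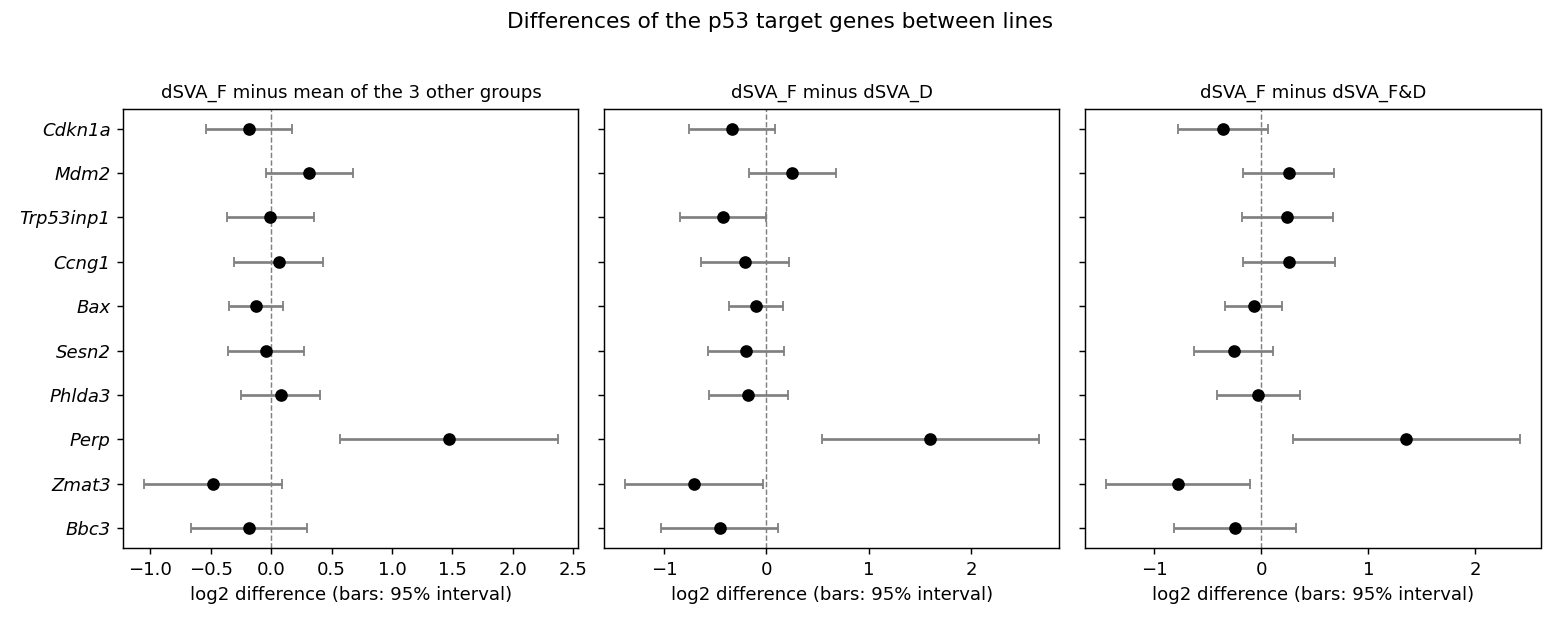
Log2 differences of the 10 p53 target genes (points) with 95% intervals (bars) for conv-dSVA_F minus the mean of the 3 other groups, minus conv-dSVA_D and minus conv-dSVA_F&D. Perp stands at 1.47, 1.6 and 1.36, and the other genes lie between -0.78 and 0.31.

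Positions of genes are those of GENCODE M21 on GRCm38. The cell-cycle members are described first. Cdkn1a (chr17:29090976-29100727, plus strand) encodes p21, the inhibitor of cyclin-dependent kinases through which p53 stops the cell cycle. Its level was 1213 and 843 normalized counts in conv-dSVA_F against 1465 and 1151 in conv-dSVA_F&D, 1281 and 1272 in conv-dSVA_D and 921 in the wild type. The groups overlapped, and conv-dSVA_F replicate 2 was the lowest of all 7 libraries. Cdkn1a in conv-dSVA_F stood at a log2 difference of -0.19 ± 0.16 (SE) from the mean of the other groups (limma, adjusted p = 0.591). The 95% interval ran from -0.54 to 0.17, a fold of 0.686 to 1.12. Against conv-dSVA_D and conv-dSVA_F&D it stood at -0.34 and -0.36.

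Ccng1 (chr11:40748552-40755311, minus strand) encodes cyclin G1, a target that takes part in the control of p53 through MDM2. Its level was 6798 and 5374 normalized counts in conv-dSVA_F against 6249.9 and 4079 in conv-dSVA_F&D, 7524 and 6492 in conv-dSVA_D and 5519 in the wild type. The lowest library was conv-dSVA_F&D replicate 2 and the highest conv-dSVA_D replicate 1. The log2 difference of conv-dSVA_F from the mean of the other groups was 0.06 ± 0.16 (95% interval -0.31 to 0.43).

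Mdm2 (chr10:117688875-117710758, minus strand), the negative regulator in the p53 feedback loop, had 3129 and 2328 normalized counts in conv-dSVA_F against 2633 and 1945 in conv-dSVA_F&D, 2537 and 2025 in conv-dSVA_D and 1992 in the wild type. Libraries overlapped: conv-dSVA_F replicate 1 was the highest of the 7 and conv-dSVA_F&D replicate 2 the lowest. The log2 difference of conv-dSVA_F from the mean of the other groups was 0.31 ± 0.16 (limma, adjusted p = 0.35), with a 95% interval of -0.05 to 0.67.

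The next members act in apoptosis or stress-induced death. Bax (chr7:45461697-45466898, minus strand) encodes a pore-forming protein of the outer mitochondrial membrane. It varied least, with 2685 and 2914 normalized counts in conv-dSVA_F against 2751 and 3147 in conv-dSVA_F&D, 3081 and 2912 in conv-dSVA_D and 3226 in the wild type. The highest library was 1.2 times the lowest, and conv-dSVA_F stood at -0.13 ± 0.10 on the log2 scale from the mean of the other groups. Bbc3 (chr7:16308393-16318205, plus strand) encodes PUMA, a BH3-only protein that activates BAX. Its level was 218 and 263 in conv-dSVA_F against 357 and 226 in conv-dSVA_F&D, 336 and 322 in conv-dSVA_D and 215 in the wild type. Both conv-dSVA_F libraries lay below both conv-dSVA_D libraries, with a log2 difference of -0.46 ± 0.25 (limma, adjusted p = 0.409).

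Trp53inp1 (chr4:11156431-11174379, plus strand) encodes a nuclear protein that promotes phosphorylation of p53 and autophagy under stress. It was the most abundant member in normalized counts, with 6998 and 5461 in conv-dSVA_F against 6320.4 and 4313 in conv-dSVA_F&D, 9115 and 7539 in conv-dSVA_D and 5533 in the wild type. The 2 conv-dSVA_D libraries were the highest and conv-dSVA_F&D replicate 2 the lowest. In conv-dSVA_F&D the gene stood at a log2 difference of -0.67 ± 0.19 from conv-dSVA_D (limma, adjusted p = 0.0897; DESeq2 called it). Without conv-dSVA_F&D replicate 1 the difference was -0.94 (limma, adjusted p = 0.024), and Ccng1 was then called too, at -0.78 (adjusted p = 0.0344). In that fit the lone library with the raised chromosome 18 stands for the line and is assumed to vary like the other groups.

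Perp (chr10:18845020-18857073, plus strand), which encodes a tetraspan membrane protein of desmosomes and apoptosis, was the member with the widest spread. Its level was 468 and 210.2 normalized counts in conv-dSVA_F against 190.4 and 78.0 in conv-dSVA_F&D, 121 and 87.4 in conv-dSVA_D and 114 in the wild type. Both conv-dSVA_F libraries were above the 5 others, a pattern that 9.51% of all tested genes had (7.42% had both below, and 0 members did), and conv-dSVA_F&D replicate 2 was the lowest of all. The log2 difference of conv-dSVA_F from the mean of the other groups was 1.47 ± 0.40 (limma, adjusted p = 0.0823), from conv-dSVA_D 1.6 ± 0.47 (adjusted p = 0.137) and from conv-dSVA_F&D 1.36 ± 0.47 (adjusted p = 0.145). Without conv-dSVA_F replicate 1 the difference from the mean of the other groups was 0.90 (limma, adjusted p = 0.626), and without its replicate 2 it was 2.05 (adjusted p = 0.0909). Over single libraries left out, the difference from conv-dSVA_F&D ran from 0.72 to 1.99, and that from conv-dSVA_D was lowest, at 1.02, without conv-dSVA_F replicate 1. Perp passed in the first comparison with DESeq2 (adjusted p = 0.00224) and without conv-dSVA_F&D replicate 1 (limma, adjusted p = 0.0243), but not with edgeR.

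Markers of trophoblast and simple epithelium were summed beside Perp. Of 7 tested genes of the trophoblast and simple epithelium list, the keratin genes Krt8 and Krt18 passed as higher in conv-dSVA_F than the mean of the other groups (log2 difference 2.1 and 2.06; limma, adjusted p = 0.0219 and 0.0206) and 0 were lower. Against conv-dSVA_D both passed too, while against conv-dSVA_F&D and against the wild type 0 of 7 passed with limma, 2 and 3 had an unadjusted p under 0.05, and edgeR and DESeq2 called 0. Without conv-dSVA_F replicate 1 Krt8 and Krt18 stood at 1.33 and 1.24 and did not pass, and neither passed when either conv-dSVA_D library was left out, without the variance trend or with no low-value filter. In conv-dSVA_F&D against conv-dSVA_D Krt8 and Krt18 also passed as higher (2.34 and 2.08; limma, adjusted p = 0.0254 and 0.0303), where 3.16% of all genes passed. Krt8 had 1765 and 609 normalized counts in conv-dSVA_F against 320.5 and 508 in conv-dSVA_F&D, 67.2 and 93.1 in conv-dSVA_D and 438 in the wild type. The summed level of the 8 listed genes was 5265 and 2304 in conv-dSVA_F against 1616 and 2325 in conv-dSVA_F&D, 992 and 1105 in conv-dSVA_D and 1733 in the wild type. The sum was highest in conv-dSVA_F replicate 1, as Perp was, and second in conv-dSVA_F&D replicate 2, where Perp was lowest. Single genes differed: Krt7 was highest in conv-dSVA_F&D replicate 1, Eomes in conv-dSVA_F replicate 2 and Tfap2c in conv-dSVA_F&D replicate 2. The trophoblast factor Cdx2 had 168 and 77.2 in conv-dSVA_F against 11.0 and 109 in conv-dSVA_F&D, 13.4 and 10.6 in conv-dSVA_D and 67.7 in the wild type. Elf5, too low to be tested, was at 0 in both conv-dSVA_F&D libraries and at most 11.1 elsewhere. The part of these genes or of such cells in the Perp values was not tested. Markers of a two-cell-like state also differed between lines. With limma 4 of 7 tested were higher in conv-dSVA_F than in conv-dSVA_D and 0 lower, where 1.35% of all genes passed. In conv-dSVA_F&D against conv-dSVA_D 4 of 7 were higher too and 0 lower, where 3.16% of all genes passed. Of these markers, 0 passed in conv-dSVA_F against conv-dSVA_F&D or against the wild type. Their summed level was 819 and 466 in conv-dSVA_F against 541 and 359 in conv-dSVA_F&D, 69.1 and 72.7 in conv-dSVA_D and 1875 in the wild type, so it was lowest in the line where Trp53inp1 was highest, and its part in the members' values was not tested. In bulk RNA more cells of a type and more RNA per cell cannot be told apart.

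The remaining members act in metabolism, growth signalling and RNA control. Sesn2 (chr4:132492032-132510501, minus strand) encodes sestrin 2, a stress-induced inhibitor of mTORC1. It had 1966 and 2224 normalized counts in conv-dSVA_F against 2785 and 2253 in conv-dSVA_F&D, 2784 and 2062 in conv-dSVA_D and 1674 in the wild type, with a log2 difference of conv-dSVA_F from the mean of the other groups of -0.05 ± 0.14. The wild type was the lowest. Phlda3 (chr1:135766119-135769136, plus strand) encodes a PH-domain protein that restrains AKT. It had 1469 and 1081 in conv-dSVA_F against 1371 and 1206 in conv-dSVA_F&D, 1567 and 1293 in conv-dSVA_D and 929.9 in the wild type. All 6 converted libraries were above the wild type, and conv-dSVA_F stood at 0.44 ± 0.21 from it (limma, adjusted p = 0.296).

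Zmat3 (chr3:32334792-32366014, minus strand), a zinc-finger RNA-binding protein gene that is a tumour-suppressive p53 target in mice, had 1325 and 916 normalized counts in conv-dSVA_F against 2539 and 1411 in conv-dSVA_F&D, 2308 and 1405 in conv-dSVA_D and 1069 in the wild type. Replicate 1 of conv-dSVA_F&D and of conv-dSVA_D stood above the 5 other libraries. conv-dSVA_F stood at a log2 difference of -0.78 ± 0.30 from conv-dSVA_F&D (limma, adjusted p = 0.181) and -0.71 ± 0.30 from conv-dSVA_D (adjusted p = 0.275). The unadjusted p was 0.0272 and 0.0408 in these comparisons.

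**Figure D3:**
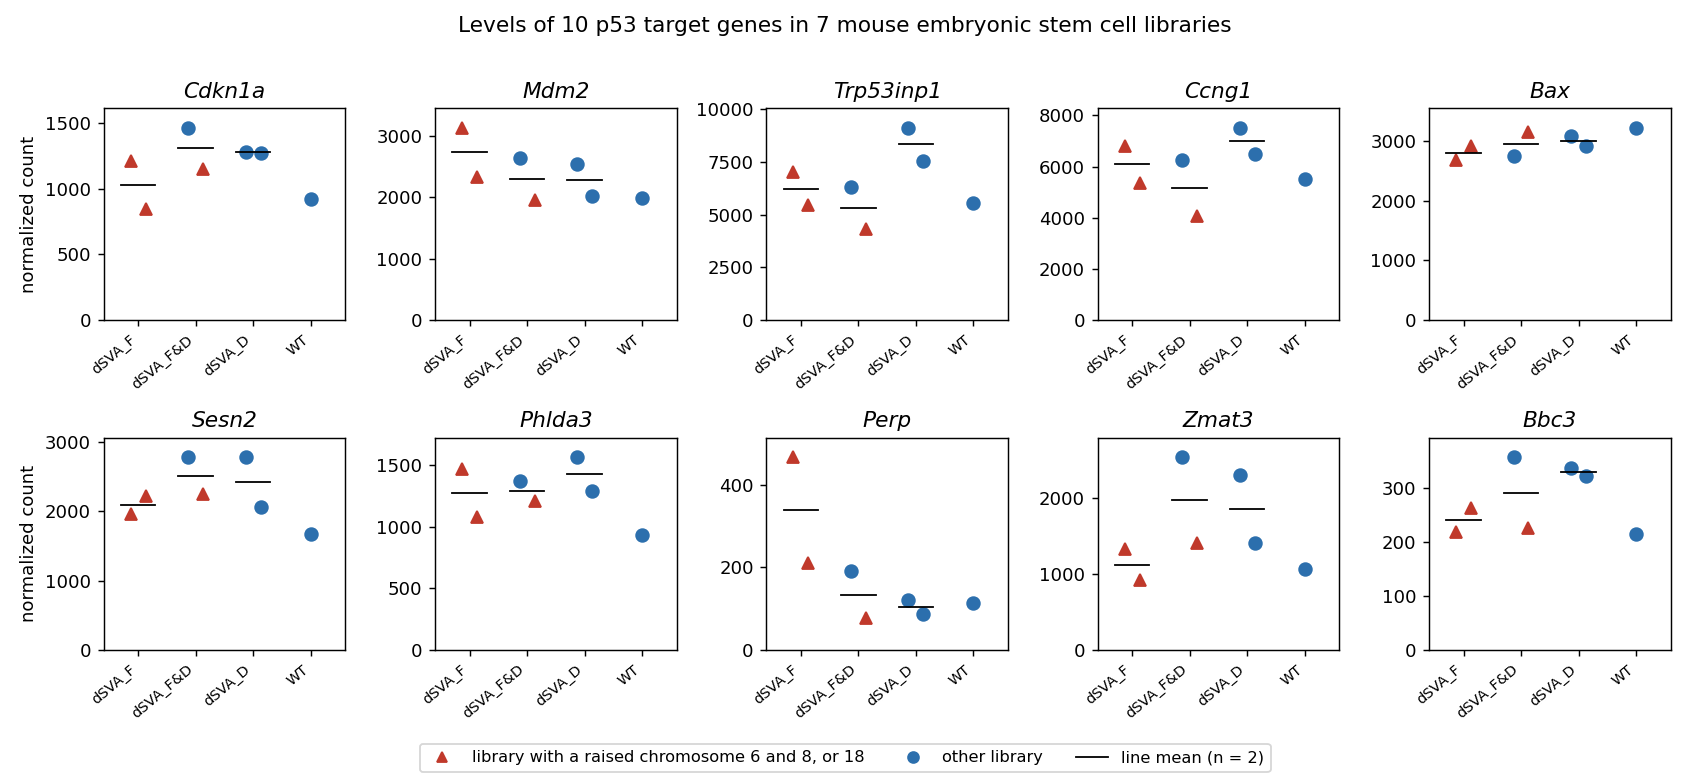
Normalized counts of the 10 p53 target genes in each library, by line, with axes from 0. Red triangles are the 3 libraries named for a raised chromosome (8 and 6, or 18), blue circles the others, and black lines the means of the 2 libraries of a line. For each of the 10 genes the red and blue symbols overlap in range; for Perp 2 red symbols are above all blue ones and the third is below all of them.

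Counting error was largest for the members with fewest reads. The smallest number of reads behind a member was 56 for Perp, with a counting error of 13.4%, and 162 for Bbc3 (7.86%). For the 8 others at least 826 reads in each library gave at most 3.48%. Overlapping genes were sought only among the gene names that GENCODE matched uniquely (92.9%). Of these none lay on the opposite strand over a member. Other annotated genes were not searched, and the part of antisense reads in the counts was not tested. On the same strand 2 were found: Gm45808, which has no reads, over Bax, and Gm12981, with a mean of 13.8 normalized counts, over Sesn2.

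By their median the members differed more between the 2 libraries of a line than the genes at or above Perp's mean level, the lowest of the members. In conv-dSVA_F&D 9 of 10 members were higher in replicate 1 than in replicate 2, the exception being Bax. In conv-dSVA_D 10 of 10 were higher in replicate 1, and in conv-dSVA_F 7 of 10. Among the 9118 genes at or above the lowest mean of a member, 49.2%, 48.3% and 47.4% were higher in replicate 1 in these 3 lines. The median of the members' log2 difference, replicate 1 minus replicate 2, was 0.49 in conv-dSVA_F&D, 0.28 in conv-dSVA_D and 0.39 in conv-dSVA_F, where the median of the 9118 genes was between -0.01 and 0.00. The median of absolute differences was 0.49, 0.28 and 0.39 for the members and 0.19, 0.14 and 0.15 for the 9118 genes. Among the 8 members that averaged 1000 normalized counts or more it was 0.39, 0.28 and 0.39, against 0.15, 0.12 and 0.13 for the 3755 genes from there to the highest member mean. The chromosome medians included 7 mitochondrially encoded protein-coding genes, not the whole mitochondrial set. The median of these 7 also differed within lines: relative to wild type it was 0.56 and -0.14 on the log2 scale for replicates 1 and 2 of conv-dSVA_F, -0.09 and -0.26 for those of conv-dSVA_F&D, and 0.34 and -0.27 for those of conv-dSVA_D. It was thus higher in replicate 1 of each line, as most members were, and its part in their values was not tested. For 8 of 10 members, all but Trp53inp1 and Perp, the largest difference between the 2 libraries of a line exceeded the largest difference between the means of the 3 lines. The same held for 52.1% of all tested genes and for 45.8% of the genes at or above the lowest member mean, so it is common among genes at large.

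Within conv-dSVA_F&D the library with the raised chromosome 18 was thus the lower of its pair for 9 of 10 members. The ratio of replicate 2 to replicate 1 was 0.410 for Perp, 0.556 for Zmat3, 0.632 for Bbc3, 0.653 for Ccng1 and 0.682 for Trp53inp1. It was 0.739 for Mdm2, 0.785 for Cdkn1a, 0.809 for Sesn2, 0.880 for Phlda3 and 1.14 for Bax. This library was also the shallowest, with 16588467 recovered reads against 23541885 for replicate 1, and the part of depth in its values was not tested. With 1 library on each side there is no test of this pair.

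**Figure D4:**
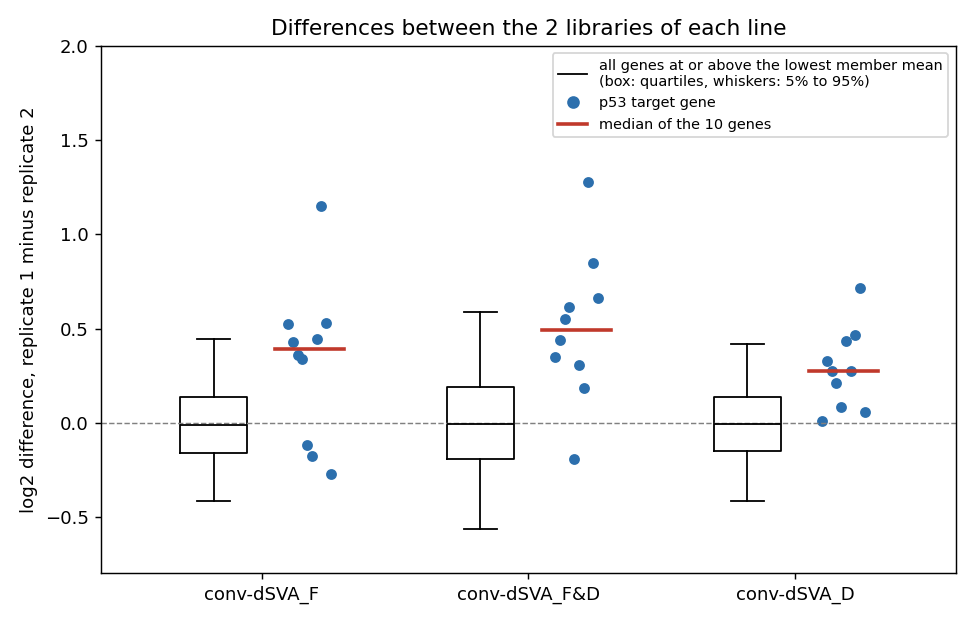
Log2 difference between replicate 1 and replicate 2 in each converted line for the 10 p53 target genes (blue points, red bar at the median) and for all genes at or above the lowest mean of a member (boxes with quartiles, whiskers at 5% and 95%). The members' medians are 0.39, 0.49 and 0.28, and those of all genes are near 0.

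Levels of different genes are compared here per exon length, as RPKM, reads scaled to exon length and to the total of the library, computed from the recovered reads. The median RPKM over the 7 libraries was 85.2 for Bax, 82.6 for Ccng1, 45.3 for Trp53inp1, 38.3 for Phlda3, 28.1 for Sesn2, 21.1 for Mdm2, 16.1 for Cdkn1a, 5.71 for Bbc3, 5.47 for Zmat3 and 2.88 for Perp. Neighbours in this order overlapped in their ranges over libraries, except Cdkn1a and Bbc3. Bax ranged from 80.5 to 91.0 and Ccng1 from 50.3 to 99.7 RPKM. Cdkn1a, at 10.9 to 19.1, stood above Bbc3, at 4.36 to 7.80, with no overlap.

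As a description over 7 libraries that come from 4 lines and differ in depth, Trp53inp1 and Ccng1 had the most alike log2 levels among the members (Pearson r = 0.963), followed by Mdm2 with Perp (0.891) and Cdkn1a with Zmat3 (0.885). Among 10306 other genes with a mean of at least 100, those most like Cdkn1a were Cbll1 (r = 0.966), Cercam (0.96) and Tial1 (0.959). In all, 33 genes had an r of at least 0.9 with Cdkn1a, and none of these values was tested.

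The gene of p53 itself, Trp53, had 3820.5 and 4818 normalized counts in conv-dSVA_F against 6014 and 5181 in conv-dSVA_F&D, 5345 and 4404 in conv-dSVA_D and 3005 in the wild type. It did not pass in any of the 5 comparisons: conv-dSVA_F stood at -0.01 ± 0.13 on the log2 scale from the mean of the other groups (limma, adjusted p = 0.97), and at 0.51 ± 0.18 from the wild type (adjusted p = 0.166). The single wild-type library was the lowest of all, and the share of all tested genes with this order was not counted. Mdm4, a partner of MDM2 that blocks p53, stood at 0.07 ± 0.11 in conv-dSVA_F from the mean of the other groups. Cdkn2a, whose ARF product frees p53 from MDM2, stood at 0.39 ± 0.26 (limma, adjusted p = 0.475).

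Among 21 tested regulators and relatives of p53, 1 passed in conv-dSVA_F against the mean of the other groups, where 3.79% of all genes did. Against conv-dSVA_F&D 1 passed, where 3.92% of all genes did. In both it was Chek2, a kinase that phosphorylates p53 after DNA breaks. Its level was lower in conv-dSVA_F, at a log2 difference of -0.52 ± 0.10 (limma, adjusted p = 0.0255) and -0.49 ± 0.12 (adjusted p = 0.049). Chek2 had 1316 and 1432 normalized counts in conv-dSVA_F against 1934 and 1922 in conv-dSVA_F&D, 1994 and 1892 in conv-dSVA_D and 2038 in the wild type. Atm, the kinase upstream of CHK2, had a lower level in conv-dSVA_F&D than it had in conv-dSVA_D (-0.47 ± 0.11, limma adjusted p = 0.0497). It was the only gene of the 21 to pass there, where 3.16% of all genes did. In conv-dSVA_F against conv-dSVA_F&D and in conv-dSVA_F&D against conv-dSVA_D edgeR called 0 of the 21, and DESeq2 called 3 and 1. In conv-dSVA_F against conv-dSVA_D and against the wild type 0 of 21 passed with limma, where 1.35% and 1.82% of all genes did. At an unadjusted p under 0.05 there were 3 and 7 (16.7% and 19.2% of all genes). In both edgeR called 0, and DESeq2 called 1 and 2. The Chek2 difference from the mean of the other groups did not pass without the variance trend, with no low-value filter, or without any one of the conv-dSVA_F and conv-dSVA_D libraries (-0.46 to -0.58).

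Of 38 other genes activated by p53, 36 were tested. In conv-dSVA_F against the mean of the other groups 1 was higher and 2 were lower, and 33 did not pass, where 3.79% of all genes passed. The median difference was 0.14, against 0.01 over all genes. Ddit4, a stress-induced inhibitor of mTORC1, was lower (-0.68 ± 0.11; limma, adjusted p = 0.0198), and so was Aen, an apoptosis-enhancing nuclease (-0.50 ± 0.11, adjusted p = 0.0383). Ddit4 had 889 and 876 normalized counts in conv-dSVA_F against 1507 and 1286 in conv-dSVA_F&D, 1608 and 1739.7 in conv-dSVA_D and 1213 in the wild type. Both conv-dSVA_F libraries were below the 5 others. Ckap2, a microtubule-associated gene, was higher (0.59 ± 0.13, adjusted p = 0.0365), and it lies on chromosome 8, whose median was raised in the same libraries.

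Against conv-dSVA_D 1 of these 36 passed (1.35% of all genes), Ddit4 (-0.92 ± 0.13, adjusted p = 0.0193). Against conv-dSVA_F&D 3 passed (3.92% of all genes): Aen (-0.70), Ddit4 (-0.66) and Ckap2 (0.79). In conv-dSVA_F&D against conv-dSVA_D Aen was higher (0.63 ± 0.13; limma, adjusted p = 0.0332) and Tigar, a regulator of glycolysis on chromosome 6, was lower (-0.52, adjusted p = 0.0481). There edgeR called 1 of the 36 as higher and 0 as lower, and DESeq2 called 1 and 2. In conv-dSVA_F against the wild type 0 of 36 passed with limma (1.82% of all genes), 9 had an unadjusted p under 0.05 (19.2% of all genes), edgeR called 1 and DESeq2 called 3. Of 24 calls, those from the further p53 lists with Krt8 and Krt18 in each comparison, 24 stood with DESeq2 and 20 with edgeR, but 0 without the variance trend and 1 with no low-value filter. Leaving out either conv-dSVA_D library left 1 call, leaving out conv-dSVA_F replicate 1 left 3 and replicate 2 left 8. With only the libraries compared 9 calls were lost and 7 stood.

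The further p53-activated genes were also ordered by library. Of the 36 genes, Gdf15 (chromosome 8), Gadd45a and Xpc (both chromosome 6) and Plk3 (chromosome 4) lay above the 4 other libraries, 11.1% of the list against 3.44% of all genes, and 0 lay below. conv-dSVA_F&D replicate 2, which had the highest Gdf15 (124 normalized counts) and Gadd45a (482), had medians of -0.01 on both chromosome 6 and chromosome 8. Off chromosomes 6, 8 and 18 this left 1 of 30 (3.33%), Plk3, against 2.79% of 12870 genes there. Plk3, a stress-responsive polo-like kinase, had 302 and 306 normalized counts in conv-dSVA_F against 147 and 249 in conv-dSVA_F&D, 196 and 137 in conv-dSVA_D and 181 in the wild type. These genes were picked out after their values were seen.

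Of 20 cell-cycle genes that p53 lowers through p21 and the DREAM complex, 2 were higher and 0 lower in conv-dSVA_F than the mean of the other groups, with a list median of -0.03, where 3.79% of all genes passed. They were Foxm1, a mitotic transcription factor (0.53 ± 0.11; limma, adjusted p = 0.0369), and Mad2l1, a spindle checkpoint gene (0.45 ± 0.09, adjusted p = 0.0305). Both lie on chromosome 6, whose median stood at 0.41 and 0.36 in these libraries. These calls too were lost without the variance trend, with no low-value filter, and without any one of the conv-dSVA_F and conv-dSVA_D libraries. Foxm1 had 1527 and 1574 normalized counts in conv-dSVA_F against 1318 and 1124 in conv-dSVA_F&D, 1726 and 1577 in conv-dSVA_D and 621 in the wild type. The wild type stood apart and both conv-dSVA_D libraries were at least as high as both of conv-dSVA_F. Relative to the wild type conv-dSVA_F was higher by 1.32 ± 0.16 on the log2 scale (limma, adjusted p = 0.0133). Against conv-dSVA_F&D Mad2l1 was higher (0.53) and Bub1b, another checkpoint gene, lower (-0.57, limma adjusted p = 0.0443), where 3.92% of all genes passed. Against conv-dSVA_D 0 of 20 passed with limma (1.35% of all genes), 2 had an unadjusted p under 0.05 (16.7% of all genes), and edgeR and DESeq2 called 0. In conv-dSVA_F&D against conv-dSVA_D only Birc5, the survivin gene, passed in this list (-0.48, limma adjusted p = 0.0497), where 3.16% of all genes did. There edgeR called 0 of 20 and DESeq2 called 2.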

How the data were processed

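Gene-level values came from 7 libraries of stranded, ribosome-depleted total RNA. Per the file headers and the values themselves, the deposited signal is a normalized count, that is, reads per gene after scaling of each library by its own size factor. Per the submitters' processing notes, reads went through Trimmomatic 0.36 and featureCounts 1.6.3, with STAR 2.7.3, Picard 2.18.20, DESeq2 and deepTools 3.1.0 also named, on mm10. The strand setting and annotation are not given in the sources used here. Each column moved in steps worth 1 read, which returned whole reads: 100% of positive values fell within 0.1 read of an integer. Totals ran from 16588467 to 26562418 reads in genes. A gene at 0 had 0 recovered reads, and its expected count could have been up to 3 reads (2.45 to 4.18 normalized counts). Such limits cover counting error only.

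The test was limma 3.58.1 in R 4.3.3 (lmFit and eBayes with a variance trend) on log2(normalized count + 1), with 4 group means and no batch term, since the labels name no batch. Genes averaging under 10 were left out, which kept 15240. Tests were two-sided and adjusted by Benjamini-Hochberg over all genes, with a threshold of 0.05. Alternatives were edgeR 4.0.16 and DESeq2 1.42.0 on recovered reads, other scalings, filters and added counts, and fits that left out 1 library. The tests were tried first on simulated data. The members and the further gene lists were chosen with earlier results of these data known. From each further list, genes past the threshold were named, at most 4 per comparison by smallest p, with Trp53, Mdm4 and Cdkn2a always. Positions and exon lengths are from GENCODE M21 (GRCm38), which matched 92.9% of gene names. Nothing in the labels ties the replicates to separate cultures, so p-values measure the spread between these libraries, which may be technical in part. The pre-conversion stem cell library and 2 striatal libraries were not analysed here.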

Additional observations from a re-analysis of the deposited data

How the results depend on the processing

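No paired analysis was possible because the labels number no replicates across lines. The limma count of 0 of 10 p53 target genes held in all 5 comparisons with other added counts, other filters, both rescalings, no variance trend and edgeR. It became 1 with DESeq2 in conv-dSVA_F against the mean of the other groups, against conv-dSVA_D and against conv-dSVA_F&D (Perp), and 1 in conv-dSVA_F&D against conv-dSVA_D (Trp53inp1). It became 1 (Perp, adjusted p = 0.0444) in conv-dSVA_F against conv-dSVA_D when limma used only the libraries compared. With 1 library left out at a time it ranged from 0 to 1 against the mean of the other groups and against conv-dSVA_F&D, from 0 to 2 in conv-dSVA_F&D against conv-dSVA_D, and stayed at 0 in the other comparisons; each change came without conv-dSVA_F&D replicate 1. Over all genes limma called 578, 205, 597, 482 and 277 in the comparisons of conv-dSVA_F with the mean of the others, conv-dSVA_D and conv-dSVA_F&D, of conv-dSVA_F&D with conv-dSVA_D, and of conv-dSVA_F with the wild type. DESeq2 called 1029, 686, 1172, 1003 and 1005, and edgeR 586, 225, 553, 463 and 251.

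Of 820 alternatives for single members, 773 kept direction and side of the threshold, 9 passed it anew and 38 changed sign, 27 of these where the difference was at most 0.1 in size. Rescaling off chromosomes 6, 8, 18, X and Y gave 0.026 for Trp53inp1 in conv-dSVA_F against the mean of the other groups and 0.0050 for Phlda3 against conv-dSVA_F&D. Mdm2 in conv-dSVA_F&D against conv-dSVA_D was 0.017 with edgeR, 0.0067 with DESeq2 and 0.0069 with TMM scaling. The cause of these changes was not tested. With single libraries left out, the members that changed sign ranged, in conv-dSVA_F against the mean of the other groups -0.45 to 0.075 for Cdkn1a, -0.11 to 0.23 for Ccng1, -0.19 to 0.17 for Trp53inp1, -0.13 to 0.044 for Sesn2 and -0.14 to 0.30 for Phlda3. For conv-dSVA_F against conv-dSVA_D the ranges were -0.41 to 0.020 for Sesn2 and -0.40 to 0.045 for Phlda3. For conv-dSVA_F against conv-dSVA_F&D the ranges were -0.048 to 0.57 for Ccng1, -0.17 to 0.024 for Bax, -0.57 to 0.085 for Bbc3, -0.032 to 0.52 for Trp53inp1 and -0.25 to 0.19 for Phlda3. For conv-dSVA_F against the wild type the ranges were -0.13 to 0.40 for Cdkn1a, -0.038 to 0.30 for Ccng1, -0.019 to 0.34 for Trp53inp1 and -0.22 to 0.31 for Zmat3. For conv-dSVA_F&D against conv-dSVA_D they were -0.15 to 0.20 for Cdkn1a, -0.22 to 0.22 for Mdm2, -0.12 to 0.071 for Bax, -0.54 to 0.12 for Bbc3, -0.39 to 0.88 for Perp, -0.15 to 0.28 for Sesn2 and -0.35 to 0.50 for Zmat3. Depth limits Perp most, with 56 reads in its lowest library, and 2 libraries per line with 1 wild-type library limit each test.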
